A study of Mus musculus with 8 samples.

Results

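The 10 genes described here encode core transcription factors of the heart: Nkx2-5, Gata4, Gata6, Tbx5, Tbx20, Hand1, Hand2, Mef2c, Myocd and Srf. They were picked by symbol as a known network of heart development, with no threshold on their values but with earlier results of these data known. They make up 10 of the 52778 rows of the deposited expression table. Each symbol stood on a single row, on a primary chromosome. RNA was sequenced from the ventricular heart of mouse embryos at embryonic day 11.5, with 4 libraries from conditional knockout embryos (cKO) and 4 from controls. In the cKO embryos, described as Rps19bp1 fl/fl; Xmlc2-Cre+/-, a Cre recombinase expressed in cardiomyocytes removes floxed copies of Rps19bp1. Cells of the ventricle without Cre keep the gene. No agent was given to either group. The controls are labelled only as control, and the genotype field reads C57BL/6 WT for all 8 libraries, so which alleles the controls carried is not stated. The series text calls the 4 libraries of each group biological replicates.

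These factors act as a network. NKX2-5, GATA4 and TBX5 bind DNA side by side and activate one another's genes as well as genes of contraction and conduction. HAND1 and HAND2 are basic helix-loop-helix proteins of the left and right ventricle, and SRF with its coactivator myocardin, the product of Myocd, drives muscle actin and related genes. In the embryonic heart Nkx2-5 and Myocd are mainly made by cardiomyocytes, whereas Gata4, Gata6, Tbx20 and Hand2 are also made by endocardium or epicardium, and Srf by nearly all cells.

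Values are TPM, reads per transcript length scaled to a total of 1000000 per library, so levels of different genes can be compared but the number of reads behind a value is unknown. Rps19bp1 stood at 11.8 to 19.2 TPM in the cKO libraries and at 34.7 to 44.2 TPM in the control libraries, which checks the labels. The extraction text of the labels speaks of cultured cortical neurons, but the 25 cardiomyocyte markers summed to between 50779 and 56559 TPM per library and the 12 neuronal markers to between 6.50 and 16.5 TPM. Neurod1, Neurod2 and Slc17a6 were listed at 0 in all 8 libraries. Mitochondrial rows took 14.2% ± 1.39 (SD, n = 4) of the cKO and 11.9% ± 0.350 (SD, n = 4) of the control libraries. A larger share of one class lowers all other TPM values, and the median log2 change over all 15541 tested rows was -0.02.

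All 10 factors were present in every library, between 31.9 TPM (Tbx5) and 319 TPM (Nkx2-5). In the controls the order by mean level was Nkx2-5 (282 TPM), Gata4 (225), Hand2 (172), Tbx20 (148), Srf (114), Gata6 (104), Hand1 (87.4), Myocd (55.4), Mef2c (51.6) and Tbx5 (40.2). Neighbours in that order had overlapping ranges for Hand2 and Tbx20, for Srf and Gata6 and for Myocd and Mef2c. The other neighbours were separated in every control library. In the cKO libraries Gata4 (229 TPM) stood first and Nkx2-5 (205 TPM) next, with overlapping ranges, and Tbx5 (33.8 TPM) again stood last. Of the 45 pairs of factors, the pair Nkx2-5 and Gata4 alone had opposite orders in the 2 groups in every library. Nkx2-5 was above Gata4 in 4 of 4 control libraries and in 0 of 4 cKO libraries. The 10 factors together summed to between 1262 and 1303 TPM in the controls and to between 1033 and 1247 TPM in cKO.

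**Figure D1:**
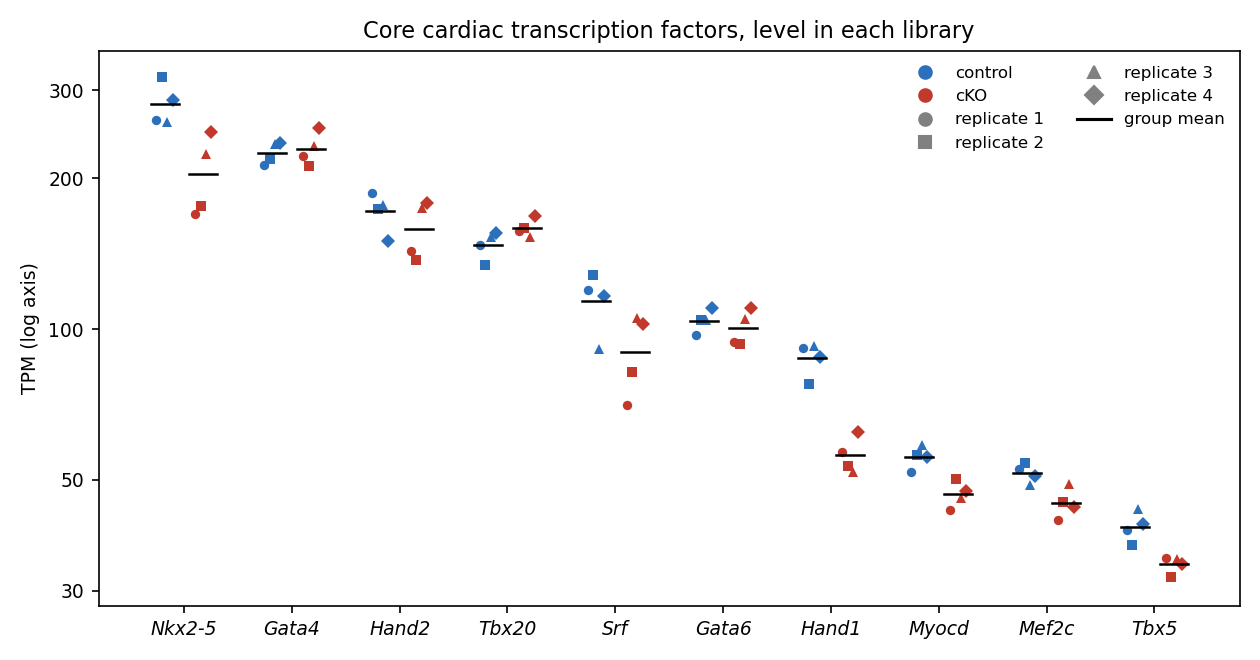
Level of each factor in each library, in TPM on a log axis, ordered by the control mean; blue is control, red is cKO, symbols give the replicate number and black bars the mean of 4 libraries. The groups do not overlap for Nkx2-5, Hand1, Myocd and Tbx5, all lower in cKO.

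Of the 10 factors, 4 fell in cKO and 0 rose (limma on log2(TPM + 1), Benjamini-Hochberg adjusted p under 0.05 over all tested rows). Hand1, Nkx2-5, Tbx5 and Myocd fell, and these are also the 4 factors whose groups did not overlap. Over all tested rows 6.4% were called in either direction and 4.23% were called lower, and the groups did not overlap in 15.6%, with cKO above in 5.33% and below in 10.3%. All 10 factors passed the filter of a mean of at least 1 TPM over all libraries. Their median log2 change was -0.22, with 8 of 10 values below 0. Hand1 kept its call under all 20 other settings tried. The calls of Nkx2-5, Tbx5 and Myocd stood close to the threshold and were lost under 14, 14 and 13 of the 20 settings, with the direction kept in each. In bulk tissue, fewer cells of a type and less RNA per cell cannot be told apart.

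**Figure D2:**
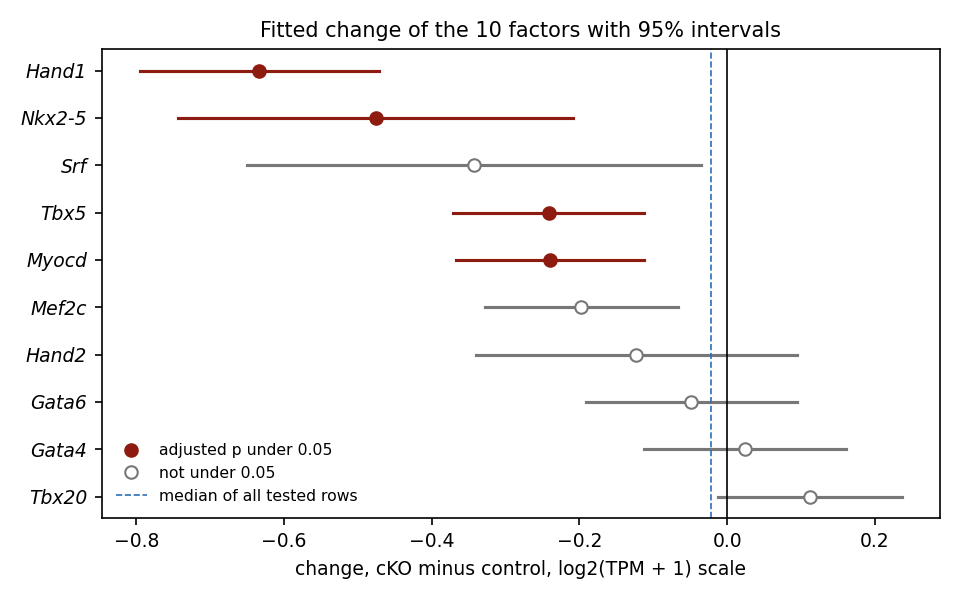
Fitted change of each factor between cKO and control on the log2(TPM + 1) scale, with 95% intervals from limma over 4 libraries per group; filled points have an adjusted p under 0.05 and the dashed line is the median of all tested rows. Hand1 lies farthest from 0 at -0.63, and Gata4, Gata6, Hand2 and Tbx20 have intervals that include 0.

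Hand1 (chr11:57828713-57832147, minus strand, GRCm38) encodes a factor of the left ventricle and the outer curvature of the heart tube. It stood at 56.8, 53.2, 51.8 and 62.2 TPM in cKO libraries 1 to 4 and at 91.5, 77.6, 92.6 and 88.0 TPM in control libraries 1 to 4. Every cKO library lay below every control library, and the cKO mean was 64.1% of the control mean. The log2 change was -0.63 (SE 0.0727, 95% interval -0.80 to -0.47, limma adjusted p = 0.00195), which ranked 40 among the 15541 tested rows by p. Over the 20 other settings the change lay between -0.69 and -0.58 and the limma adjusted p stayed at or below 0.017.

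Hand2 (chr8:57320983-57324517, plus strand), the relative of Hand1 that is richer in the right ventricle, had overlapping groups. It stood at 143, 137, 175 and 179 TPM in cKO libraries 1 to 4 and at 187, 174, 177 and 150 TPM in control libraries 1 to 4. Its log2 change was -0.12 with a 95% interval from -0.34 to 0.09 (limma adjusted p = 0.492). The share of left and right ventricle in each dissection is not given by the labels, so its part in the Hand1 value was not tested.

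The 250 bases before the RefSeq start of Hand2 (GRCm38.p6, chr8:57320733-57320982, plus strand) are printed because a second transcript starts inside them. This transcript, Hand2os1, lies on the opposite strand and starts 124 bases from the Hand2 start. Capitals mark matches on either strand to GATAA, bound by GATA factors, and to the E-box CANNTG, bound by basic helix-loop-helix factors such as HAND1 and HAND2. The stretch holds 2 matches of each, none overlapping. Of 32851 windows of the same length in the RefSeq promoter table, 22.6% hold GATAA and 66.2% hold CANNTG.
Hand2: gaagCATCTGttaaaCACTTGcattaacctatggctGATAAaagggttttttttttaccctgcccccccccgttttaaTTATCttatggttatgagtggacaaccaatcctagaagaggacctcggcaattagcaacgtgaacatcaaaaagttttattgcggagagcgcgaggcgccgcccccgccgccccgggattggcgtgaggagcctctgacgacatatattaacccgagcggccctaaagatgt

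Of the T-box factors, Tbx5 fell and Tbx20 did not pass. Tbx5 (chr5:119796514-119885220, plus strand), which marks the left ventricle and atria and directs septation and conduction, was the least abundant factor. It stood at 34.9, 31.9, 34.7 and 33.9 TPM in cKO libraries 1 to 4 and at 39.6, 37.1, 43.6 and 40.7 TPM in the controls. The groups did not overlap, and the cKO mean was 84.1% of the control mean. The log2 change was -0.24 (SE 0.0582, 95% interval -0.37 to -0.11, limma adjusted p = 0.0386). When each library was scaled to its cardiomyocyte markers the change was -0.19 (limma adjusted p = 0.244). The call held without control library 2 (-0.28) and was lost without any other single library (-0.26 to -0.20).

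Tbx20 (chr9:24720812-24774303, minus strand), which is needed for chamber growth and keeps Tbx2 off in the chambers, had the highest value of the 10 changes. It stood at 157, 159, 153 and 169 TPM in cKO and at 147, 134, 153 and 156 TPM in the controls, with overlapping groups. Its log2 change was 0.11 (95% interval -0.01 to 0.24, limma adjusted p = 0.26).

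Nkx2-5 (chr17:26838664-26844988, minus strand), the homeodomain factor that marks cardiac progenitors and myocytes, was the most abundant of the 10 factors in the controls. It stood at 170, 176, 224 and 248 TPM in cKO libraries 1 to 4 and at 262, 319, 260 and 287 TPM in control libraries 1 to 4. The groups did not overlap, but cKO library 4 lay close to control library 3. The cKO mean was 72.5% of the control mean, a log2 change of -0.48 (SE 0.12, 95% interval -0.74 to -0.21, limma adjusted p = 0.0453). The change stayed negative under every setting, from -0.57 to -0.32, and the limma adjusted p ranged from 0.0186 to 0.157. The call held without cKO library 4 (-0.57) and was lost when any other single library was left out (-0.53 to -0.39).

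The 250 bases before a RefSeq start of Nkx2-5 (GRCm38.p6, chr17:26841566-26841815, minus strand), which lies inside the deposited row, are printed because this factor is one of the 4 that fell. Capitals mark the single E-box, CANNTG. The motif TNAAGTG, bound by NKX2-5, had no match on either strand and is held by 10.1% of all windows. The T-box core AGGTGT had none either and is held by 11.8% of windows. The GATA motif, the CArG box bound by SRF and the MEF2 site were also without a match.
Nkx2-5: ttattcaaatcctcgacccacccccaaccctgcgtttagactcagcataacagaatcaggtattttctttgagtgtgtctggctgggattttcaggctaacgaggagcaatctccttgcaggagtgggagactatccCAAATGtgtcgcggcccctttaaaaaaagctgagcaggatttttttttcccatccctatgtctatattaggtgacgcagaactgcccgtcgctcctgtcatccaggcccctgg

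The GATA zinc finger factors did not pass the test. Gata4 (chr14:63198914-63271712, minus strand), a partner of NKX2-5 and TBX5, stood at 222, 212, 232 and 252 TPM in cKO and at 212, 219, 234 and 236 TPM in the controls. Its log2 change was 0.02 (95% interval -0.11 to 0.16, limma adjusted p = 0.848). Gata6 (chr18:11052510-11085636, plus strand), which overlaps Gata4 in function, stood at 94.1, 93.4, 105 and 110 TPM in cKO and at 97.3, 104.1, 104.1 and 110.2 TPM in the controls. Its log2 change was -0.05 (95% interval -0.19 to 0.09, limma adjusted p = 0.698). Both intervals leave out a change of the size seen for Hand1.

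Among the MADS box factors and their coactivator, Myocd fell and Mef2c and Srf did not pass. Myocd (chr11:65173608-65269989, minus strand), whose product binds SRF and switches on muscle genes, stood at 43.6, 50.2, 46.0 and 47.4 TPM in cKO and at 51.8, 55.9, 58.6 and 55.5 TPM in the controls. The groups did not overlap, although cKO library 2 and control library 1 were close. The cKO mean was 84.4% of the control mean, a log2 change of -0.24 (SE 0.0571, 95% interval -0.37 to -0.11, limma adjusted p = 0.038). The call held without cKO library 2 or control library 1 (both -0.27) and was lost without any other single library (-0.25 to -0.21).

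Mef2c (chr13:83504017-83667079, plus strand), needed for looping and for the right ventricle, stood at 41.5, 45.0, 49.1 and 44.0 TPM in cKO and at 52.6, 54.0, 48.8 and 50.9 TPM in the controls. The groups overlapped through cKO library 3 and control library 3. The log2 change was -0.20 (95% interval -0.33 to -0.07), which had an unadjusted p of 0.00716 and a limma adjusted p of 0.0774. Srf (chr17:46546838-46558267, minus strand) stood at 70.4, 82.0, 105 and 103 TPM in cKO and at 120, 128, 91.1 and 116 TPM in the controls. Srf had the widest spread of the 10 factors in cKO and in control, with a standard deviation of 18.5% and 14.0% of the mean, and Nkx2-5 followed in cKO with 18.4%. Srf had a log2 change of -0.34 (95% interval -0.65 to -0.04, limma adjusted p = 0.168).

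The 250 bases before a RefSeq start of Srf (GRCm38.p6, chr17:46556163-46556412, minus strand) lie inside the deposited row. They are printed because SRF is known to act on its own gene through CArG boxes. The stretch holds 2 CArG boxes, in capitals, and no match to the GATA, NKX2-5, T-box, E-box or MEF2 motifs. A CArG box is found in 1.47% of all windows.
Srf: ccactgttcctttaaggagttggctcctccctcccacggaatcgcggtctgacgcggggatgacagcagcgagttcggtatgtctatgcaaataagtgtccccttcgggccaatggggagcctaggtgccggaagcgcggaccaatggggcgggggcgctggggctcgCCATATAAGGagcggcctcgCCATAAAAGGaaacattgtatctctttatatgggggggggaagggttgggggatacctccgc

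Ratios of related factors within a library do not depend on how the library total is scaled. The ratio of Hand1 to Hand2 was 0.396, 0.388, 0.296 and 0.348 in cKO libraries 1 to 4 and 0.489, 0.447, 0.522 and 0.586 in control libraries 1 to 4. The groups did not overlap, with a difference of -0.52 on the log2 scale (exact two-sided permutation p = 0.0286, adjusted over the 4 ratios p = 0.0571). The ratio of Tbx5 to Tbx20 lay between 0.200 and 0.227 in cKO and between 0.261 and 0.286 in control, also without overlap (log2 difference -0.36, exact permutation p = 0.0286, adjusted p = 0.0571). With 4 libraries against 4, 0.0286 is the smallest p this test can give. The ratio of Gata4 to Gata6 lay between 2.21 and 2.35 in cKO and between 2.10 and 2.25 in control, with overlap (log2 difference 0.07, exact permutation p = 0.0571, adjusted p = 0.0762). For Myocd to Srf the ranges overlapped almost fully, at 0.438 to 0.619 in cKO and 0.432 to 0.644 in control (log2 difference 0.10, exact permutation p = 0.686, adjusted p = 0.686).

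**Figure D3:**
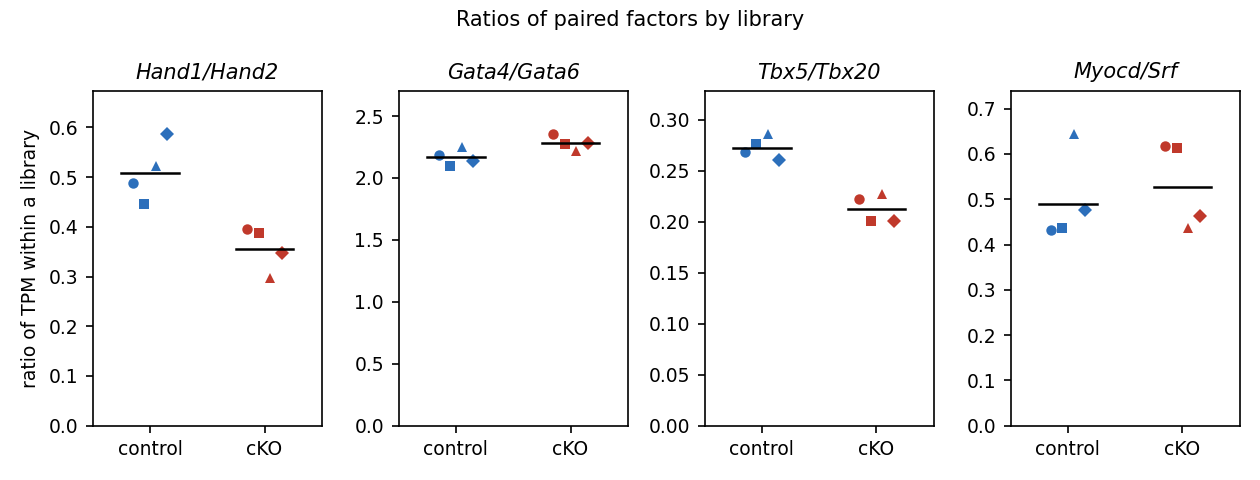
Ratio of the TPM of related factors within each library, on linear axes that start at 0; blue is control, red is cKO, circles, squares, triangles and diamonds are replicates 1, 2, 3 and 4, and black bars are the geometric mean of 4 libraries. Hand1 to Hand2 and Tbx5 to Tbx20 are lower in every cKO library, and the other ratios overlap.

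The 10 factors did not vary alike among the cKO libraries. Nkx2-5, Gata4, Gata6, Hand2 and Srf were each higher in cKO libraries 3 and 4 than in cKO libraries 1 and 2, and none of the 10 showed the opposite. Over all tested rows, 18.6% were higher and 22.4% lower in libraries 3 and 4. This division of the cKO libraries was chosen after the values were seen. The 5 factors have transcripts with 55.3% to 67.1% G and C, where the median of tested rows is 49.8%. Of the other 5 factors, Hand1 lies in the same range with 57.0%, and Tbx5 (51.3%), Myocd (49.9%), Tbx20 (42.3%) and Mef2c (40.8%) lie below it. After removal of the trend of each library with GC content and transcript length, the change of Nkx2-5 was -0.32 (limma adjusted p = 0.0361) and that of Hand1 was -0.61 (limma adjusted p = 0.00135). Tbx5 (-0.22, limma adjusted p = 0.0407) and Myocd (-0.22, limma adjusted p = 0.0379) also kept their calls. Srf stood at -0.23 with the trend removed (limma adjusted p = 0.294), against -0.34 in the TPM as deposited. The part of GC content in the division of the cKO libraries was not tested.

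**Figure D4:**
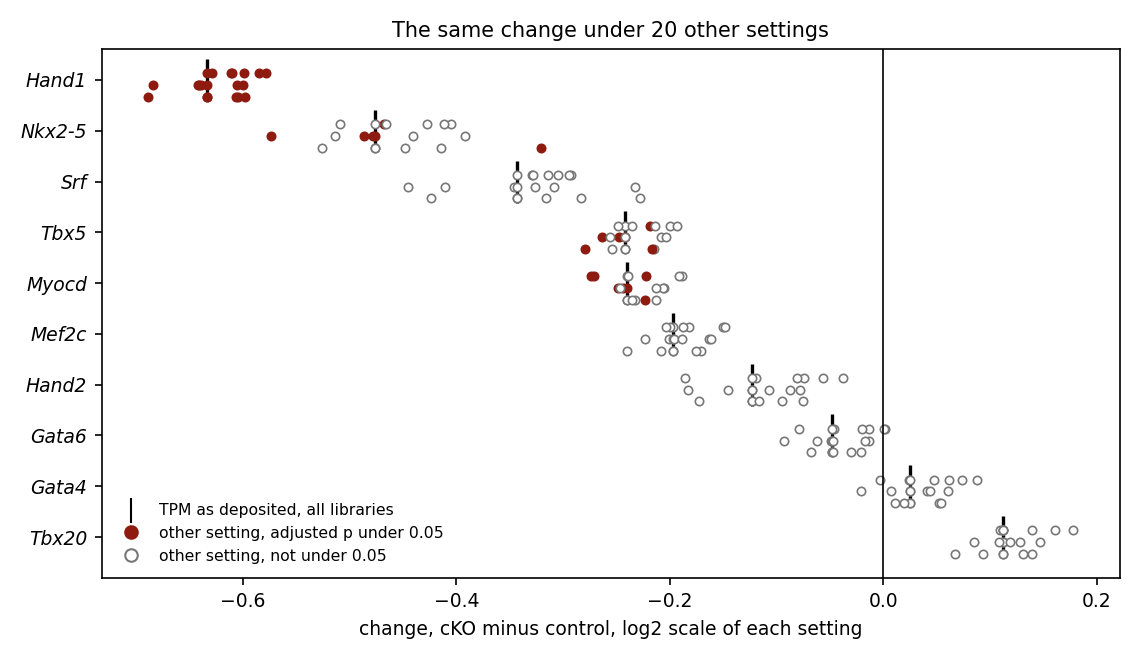
Change of each factor under the 20 other settings, each point 1 setting on its own log2 scale, with the black tick for TPM as deposited and all 8 libraries; filled points have an adjusted p under 0.05. Hand1 stays filled throughout, between -0.69 and -0.58, while Nkx2-5, Tbx5 and Myocd hold both filled and open points.

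Several factors lie beside or across a transcript on the opposite strand, for which use of strand in counting is not stated. Hand2os1 (chr8:57304261-57320859) is the lncRNA that starts back to back with Hand2. It stood at 82.8, 78.7, 83.3 and 71.7 TPM in cKO and at 69.7, 66.3, 71.7 and 71.8 TPM in the controls, a log2 change of 0.18 (limma adjusted p = 0.0972), with groups that overlapped through cKO library 4. Without that library the change was 0.22 (limma adjusted p = 0.0375). Gata6os, whose start lies 57 bases from that of Gata6, had a mean of 36.2 TPM and a log2 change of 0.10 (limma adjusted p = 0.512). Gm32915 starts 39 bases from Hand1 and overlaps it by 40 bases, at a mean of 3.53 TPM and a log2 change of -0.24 (limma adjusted p = 0.257). Gm30586 starts 64 bases from Myocd, at a mean of 4.11 TPM and a log2 change of -0.01 (limma adjusted p = 0.978). Gm5563 lies across the Tbx5 gene over 26660 bases, at a mean of 13.1 TPM and a log2 change of -0.17 (limma adjusted p = 0.381). None of these transcripts passed the test with all 8 libraries. Gm29824 near Tbx20 (log2 change -0.02, limma adjusted p = 0.97) and the microRNA row Mir6976 inside Srf (-0.29, limma adjusted p = 0.584) did not pass either. Beside or across Mef2c, Gm33317 was listed at 0 in every library, and Gm52043 (mean 0.0758 TPM) and Gm52044 (mean 0.303 TPM) were too low to be tested.

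Among markers of the other cells of the ventricle, the epicardial and mesenchymal sums were higher in every cKO library than in any control library, and those of the other lists overlapped. Over all tested rows 2.16% were called higher and 4.23% lower, and 3687 of 15541 had an unadjusted p under 0.05. The 11 epicardial markers summed to 484 to 595 TPM in cKO and to 412 to 474 TPM in control, and 6 of them were called higher. The 10 mesenchymal markers summed to 1008 to 1215 TPM in cKO and to 669 to 867 TPM in control, and 5 were called higher. The 25 cardiomyocyte markers summed to 50779 to 54596 TPM in cKO and to 52114 to 56559 TPM in control, with 0 called and 8 at an unadjusted p under 0.05 in limma. Actc1 was the most abundant of them and weighs most in the sum. Of these 25, 18 had a log2 change below 0, as had 8678 of all 15541 tested rows. The groups did not overlap in 6, with cKO above in 1 and below in 5, against 15.6%, 5.33% and 10.3% of all tested rows. Overlapping sums were also found for the 14 endocardial and endothelial markers (1150 to 1315 TPM in cKO, 1055 to 1173 in control, 0 called). Of these 14, 12 had a log2 change above 0 and 6 had an unadjusted p under 0.05 in limma. The sums of the 11 erythroid markers overlapped too (1767 to 3777 against 1983 to 7190, 1 called lower), with 10 log2 changes below 0. So did those of the 9 macrophage markers (15.4 to 42.9 against 16.8 to 31.0, 0 called), with all 8 tested log2 changes above 0. At the edges of the dissection, the 5 atrial markers summed to 101 to 117 TPM in cKO and 104 to 111 in control, and the 7 outflow and second heart field markers to 33.9 to 51.0 against 29.5 to 40.5. Of the 2 outflow markers that were tested, Sema3c, a guidance factor gene of the outflow tract, was called higher (log2 change 0.41, limma adjusted p = 0.0392). The 4 ventricular markers summed to 13170 to 13510 TPM in cKO and 13032 to 14598 in control, with 1 called lower, Irx4. Apart from the 3 neuronal genes named above, no marker of these lists was at 0 in all libraries. The part of these markers in the changes of the 10 factors was not tested. Relative to the cardiomyocyte markers of the same library, Hand1 was lower by a log2 change of -0.58 (limma adjusted p = 0.00943), and Nkx2-5 (-0.43, limma adjusted p = 0.0806) and Myocd (-0.19, limma adjusted p = 0.106) did not pass. These markers are not independent of the factors. Several, such as Myh6, Actc1 and Tnnt2, are also on the list of target genes below. Tpm1 is also on the list of cytoskeletal SRF targets and Smyd1 on that of partners.

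Of 22 cofactors and dimer partners of the 10 factors, 0 were called by limma, where 6.4% of all tested rows were called. An unadjusted p under 0.05 was found for 5 of the 22 and for 3687 of all 15541 tested rows, and the partners had a median log2 change of 0.00. The members with the smallest p were Smyd1, a muscle methyltransferase downstream of MEF2C (log2 change -0.25, limma adjusted p = 0.0636), and Hdac5, a repressor of MEF2 factors (-0.16, limma adjusted p = 0.101). The GATA partner Zfpm2 (log2 change -0.01) and the SRF coactivators Mrtfa (0.04) and Mrtfb (0.12) did not pass. Without cKO library 2 limma called 2 partners, among them Smyd1 (-0.31, adjusted p = 0.0298).

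Among 32 other transcription factors of heart fields, chambers, valves and conduction, 25 were tested, 1 was called higher and 1 lower, where 6.4% of all tested rows were called in either direction. The median log2 change of the 25 was -0.03. Irx4, a marker of ventricular myocardium, fell to 73.8 ± 2.31 TPM in cKO, with 94.5 ± 3.48 TPM in control (SD over 4 libraries each). The change was -0.35 on the log2 scale (limma adjusted p = 0.00308). Its libraries lay between 71.1 and 75.8 TPM in cKO and between 90.8 and 98.6 TPM in control. Tbx18, a T-box factor of the epicardium that is also on the epicardial marker list, rose to 43.6 ± 1.73 TPM in cKO, with 35.0 ± 2.00 TPM in control (SD over 4 libraries each). Tbx18 differed by a log2 change of 0.31 (limma adjusted p = 0.0128). Both kept their calls under the 20 other settings. Mef2a, Mef2d and Gata5, relatives of the 10 factors, did not pass, with log2 changes of 0.01, -0.08 and 0.06. Irx3 (-0.53, limma adjusted p = 0.0657) and Prdm16 (-0.26, limma adjusted p = 0.0659) did not pass either, but every cKO library lay below every control library. The groups did not overlap in 4 of the 25 tested factors and in 15.6% of all tested rows.

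Cardiac genes described as targets of one or more of the 10 factors moved both ways. Of 26 target genes, 3 were called higher and 2 lower, against 2.16% and 4.23% of all tested rows, and the median log2 change was -0.05. The genes that fell were Gja5 and Hcn4. Gja5, the connexin 40 gene activated by TBX5 and NKX2-5, stood at 87.2 to 113 TPM in cKO and at 141 to 176 TPM in control (log2 change -0.69, limma adjusted p = 0.00308). Hcn4, the pacemaker channel gene, stood at 13.2 to 19.0 TPM in cKO and at 26.1 to 30.7 TPM in control (log2 change -0.79, limma adjusted p = 0.00279). Both genes had groups that did not overlap and kept their calls under the 20 other settings.

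The 3 targets that rose were Ccnd2, Nppb and Ankrd1. Ccnd2, a cyclin gene activated by GATA4, stood at 321 to 364 TPM in cKO and at 229 to 249 TPM in control (log2 change 0.50, limma adjusted p = 0.00129), a call kept under all 20 settings. Nppb, the gene of brain natriuretic peptide and a target of GATA4, stood at 460 to 697 TPM in cKO and at 312 to 404 TPM in control (log2 change 0.54, limma adjusted p = 0.041). Ankrd1, which encodes a cardiac ankyrin repeat protein, stood at 997 to 1141 TPM in cKO and at 747 to 916 TPM in control (log2 change 0.33, limma adjusted p = 0.0335). Nppb and Ankrd1 lost their calls under 11 and 9 of the 20 settings. Nppb lost its call without any single library (0.41 to 0.61), and Ankrd1 without any single library (0.28 to 0.36) other than cKO library 4 or control library 4. Nppa, the atrial natriuretic peptide gene and a shared target of NKX2-5, GATA4 and TBX5, had groups that did not overlap, at 4882 to 7403 TPM in cKO and 3723 to 4561 TPM in control, but did not pass (log2 change 0.44, limma adjusted p = 0.0768). Genes of contraction such as Actc1 (log2 change -0.06), Myl2 (-0.05) and Tnnt2 (-0.05) did not pass. Des (-0.22), Atp2a2 (-0.19), Myh6 (-0.18) and Tnni1 (-0.16) did not pass either, but every cKO library lay below every control library. For Csrp3 (0.14), which did not pass, every cKO library lay above. Of the 26 targets, the groups did not overlap in 11, with cKO above in 5 and below in 6. Over all tested rows the groups did not overlap in 15.6%, with cKO above in 5.33% and below in 10.3%.

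**Figure D5:**
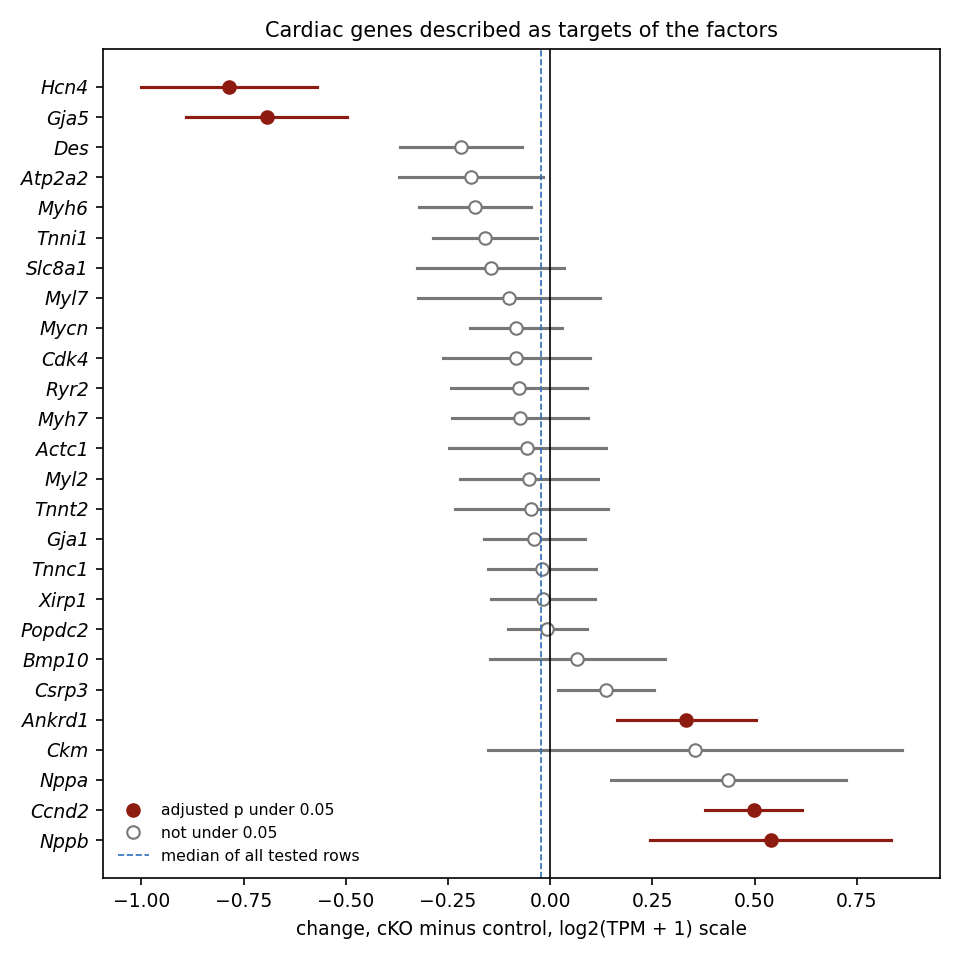
Fitted change of 26 cardiac genes described as targets of the factors, cKO minus control on the log2(TPM + 1) scale, with 95% intervals from limma over 4 libraries per group; filled points have an adjusted p under 0.05. Hcn4 and Gja5 lie lowest and Nppb and Ccnd2 highest, and 21 of the 26 genes have open points; the dashed line is the median of all tested rows.

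Of 23 cytoskeletal and smooth muscle targets of SRF, 22 were tested, 1 was called higher and 0 lower, where 2.16% and 4.23% of all tested rows were called. The median log2 change of the 22 was 0.06. Flna, which encodes the actin cross-linker filamin A, rose to 237 ± 10.4 TPM in cKO, with 203 ± 11.6 TPM in control (SD over 4 libraries each). For Flna the log2 change was 0.22 (limma adjusted p = 0.0398), and the call was lost under 11 of 20 settings, among them leaving out any library other than cKO library 2, where the change lay between 0.18 and 0.25. Ccn1, a matrix protein gene, had the next smallest p (log2 change 0.35, limma adjusted p = 0.0953). Of 10 immediate early targets, 6 were tested and 0 were called by limma, and 0 had an unadjusted p under 0.05, with a median log2 change of -0.13. With 6.4% of all tested rows called, these counts do not set the SRF targets apart. Junb (log2 change -0.21, limma adjusted p = 0.269) and Ier2 (-0.13, limma adjusted p = 0.272) had the smallest p.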

How the data were processed

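RNA sequencing of 8 libraries was used, 4 cKO and 4 control, grouped by the sample titles, all with the same batch label. The deposited table gives TPM computed by the authors. Per the submitters' processing notes, FastQC, Trim Galore 0.6.7, HISAT2 2.2.1, StringTie 2.2.1, featureCounts and DESeq2 were used with GRCm38, with no roles given. The labels contradict each other on RNA extraction and on poly(A) selection or depletion of ribosomal RNA. Of 49593 rows matched by symbol and chromosome to RefSeq GRCm38.p6, 49592 carried identical coordinates.

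Rows with a mean of at least 1 TPM were fitted with limma 3.58.1 (R 4.3.3) on log2(TPM + 1) (group only, eBayes with a trend, two-sided, Benjamini-Hochberg over 15541 rows, threshold 0.05). Fold changes on this scale understate changes of low genes. Single ratios used an exact permutation test over 70 assignments. The procedure was tested on simulated data with independent noise and the spreads of the fit. Those data hold no differences between whole libraries, such as in mitochondrial share, so the effect of these was not tested by them. Figures used matplotlib 3.10.9. TPM keeps no depth, so precision is that between libraries.

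The members and gene lists were chosen with earlier results of these data known. Named were all members, the called genes of each list or, with fewer than 2 called, the 2 with the smallest p, Rps19bp1, and rows overlapping a member or starting within 5000 bases of its start. Others were added as context. A gene on each of 2 lists is not reported here and is left out of its list's counts. Alternatives changed 1 choice at a time: the pseudocount, the filter, the scaling (quantile, median-ratio, without mitochondrial and globin rows, to cardiomyocyte markers), the eBayes trend, array weights, a replicate block, a GC and length trend, chosen after seeing the data and known for 94.1% of rows, and each library left out. Promoter sequences are from the RefSeq promoter table. Chromosome 18, where Gata6 lies, was left out, and entries of 5 of the 10 factors were found on the other chromosomes. The 7 entries of these factors were searched for 6 motifs. Not printed are the Tbx20 entry, which had no match to any motif, and the Mef2c entries, with matches only to the GATA, T-box and E-box motifs.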

Additional observations from a re-analysis of the deposited data

Results flagged for a closer look

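Among 31 named genes, 62 groups of 4 libraries were checked for a library far from the other 3, and 2 were found. By chance about 1 in 20 such groups would be. Ankrd1 stood at 1141 TPM in cKO replicate 3 and between 997 and 1017 TPM in the other cKO libraries. Ccnd2 stood at 364 TPM in cKO replicate 3 and between 321 and 327 TPM in the other cKO libraries. None of the 10 factors had such a library in either group.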

How the results depend on the processing

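Hand1 was lower and past the threshold under each of the 20 alternatives, and no called result changed direction. The number of called factors was 4 as reported and 1, Hand1, under no filter, quantile normalization, median-ratio scaling, rescaling to rows that are not mitochondrial or globin, scaling to cardiomyocyte markers, eBayes without a trend and the replicate block, and between 1 and 2 with single libraries left out. In these 7 settings in that order the change of Nkx2-5 was -0.48, -0.40, -0.45, -0.44, -0.43, -0.48 and -0.48, that of Tbx5 was -0.24, -0.20, -0.22, -0.21, -0.19, -0.24 and -0.24, and that of Myocd was -0.24, -0.19, -0.21, -0.21, -0.19, -0.24 and -0.24, none past the threshold. Without single libraries the ranges were -0.57 to -0.39 for Nkx2-5, -0.28 to -0.20 for Tbx5 and -0.27 to -0.21 for Myocd. The called rows numbered 994 as reported, 347 with no filter (32491 rows tested), 373 scaled to cardiomyocyte markers, 609 without a trend, 420 with the replicate block and 388 to 936 without single libraries (400 and 420 without cKO replicates 1 and 3, and 388, 445, 412 and 565 without control replicates 1 to 4). Of all calls 33.8% were higher in cKO as deposited, 50.2% after quantile normalization, 47.8% after median-ratio scaling, 49.5% after rescaling to rows that are not mitochondrial or globin, 63.8% scaled to cardiomyocyte markers and 43.2% with the GC and length trend removed. Other counts moved for the chamber targets (from 5 to 3 with no filter, without a trend and with the replicate block, and to 3 to 4 without single libraries), the other heart factors (4 called with array weights), the partners (0 to 2 without single libraries, the 2 without cKO replicate 2) and the cytoskeletal SRF targets (0 with no filter, scaled to cardiomyocyte markers, without a trend and with the replicate block, and 0 to 1 without single libraries). The cause was not tested. No clear sign was seen that the replicate numbers pair the samples, although this check cannot exclude it. Deviations of same-numbered libraries correlated between -0.09 and 0.07, and 2 of 4 cKO libraries correlated best with their own number.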

Other observations

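Of the other heart transcription factors, 7 lay below a mean of 1 TPM and were not tested. These were Isl1 (0.594 TPM) and Tbx1 (0.0392 TPM), factors of the second heart field, Shox2 (0.331 TPM), a factor of the sinus node, Mesp1 (0.171 TPM) and Foxh1 (0.218 TPM) of the early mesoderm, and Nkx2-6 (0.281 TPM) and Mef2b (0.136 TPM). Among SRF targets, the smooth muscle myosin gene Myh11 (0.204 TPM) and the immediate early genes Fosb (0.442 TPM), Egr2 (0.179 TPM), Egr3 (0.344 TPM) and Egr4 (0.0459 TPM) were also below it. Each value is a mean over all 8 libraries.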
